A study of Canis lupus familiaris with 7 samples.

Results

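The cardiac thin filament was described through 9 genes on an Affymetrix canine expression array: the troponins TNNI3, TNNT2 and TNNC1, the tropomyosins TPM1, TPM2 and TPM3, cardiac α-actin ACTC1, and the pointed-end proteins LMOD2 and TMOD1. The members are all probe sets (each a group of short probes that report a transcript) whose only gene symbol in the platform annotation is one of these 9. That gave 26 probe sets for 9 of the 15115 genes named on the array, and all 26 were bright enough to be tested. Within a gene, probe sets are numbered by falling mean signal, so that TPM1 probe set 1 is the brightest for TPM1, and the plots give the array's identifier beside each number. One further probe set that names TPM3 together with other genes was left out. The samples compared are left ventricle of adult male mongrel dogs kept for 2 weeks on a diet with 0.5% sodium chloride (4 arrays, numbered 1 to 4), set against left ventricle of male control dogs (3 arrays, numbered 1, 3 and 4). The design text gives 10 dogs of 25 to 28 kg for the diet and does not say how they relate to the 4 arrays. What the controls ate, for how long, and their age are not stated in the labels. Nothing in the labels says that the samples came from different animals. The p-values therefore cover the spread among these 7 samples, part of which may be technical.

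The thin filament is a polymer of actin with a tropomyosin strand along each side and a troponin complex at regular intervals. Troponin C (TNNC1) binds calcium, troponin I (TNNI3) holds the filament off at low calcium and troponin T (TNNT2) ties the complex to tropomyosin, which then moves away from the myosin-binding sites of actin. Tropomodulin 1 (TMOD1) caps the pointed end of the filament and leiomodin 2 (LMOD2) lets it lengthen there. TPM1 is the main tropomyosin of ventricular muscle, while TPM2 and TPM3 are used more in skeletal muscle and in cells outside the sarcomere.

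The arrays carry no read depth, so their number limits the precision. Array medians of the deposited intensity ran from 19.3 to 44.2 in low salt and from 31.5 to 51.2 in controls, and the arrays were therefore quantile normalized on the scale log2(intensity + 16). Low-salt array 3 and control array 4 correlated with each other at r = 0.947 across tested probe sets, control 4 with the other controls at 0.901 and 0.919, and low-salt 3 with the other low-salt arrays at 0.924 to 0.93. The TPM1 and TPM2 results below are also given without both arrays. Markers of ventricular cardiomyocytes chosen for this work (MYH7, MYL2, MYL3, MB, RYR2, PLN, ACTN2) had summed intensities of 59240 to 80390 in low salt and 61160 to 98390 in controls, and 0 of 7 passed an adjusted p of 0.05 (1 at an unadjusted p of 0.05, ACTN2, at -0.27). Changes below are log2 differences, low salt minus control, on a scale that understates the change of dim probe sets, and intensity values are as deposited. Signals of different probe sets are not comparable as amounts of transcript.

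Of the 26 probe sets, 1 passed the test over the whole array, a dim TPM1 probe set that fell in low salt. The strongly hybridising probe sets of the troponins, TPM1, ACTC1 and TMOD1 had changes between -0.34 and 0.25, and that of LMOD2 stood at -0.49 (limma adjusted p = 0.25). All of these depend on the scaling. When array medians were set equal they became 0.23 to 0.61, and 0.09 for LMOD2, where the median change of all tested probe sets was 0.26. By limma with Benjamini-Hochberg adjustment over 28616 probe sets, 1 of 26 (3.85%) was called at an adjusted p of 0.05, where 0.346% of all tested probe sets were. At an unadjusted p under 0.05 stood 5 of 26 (19.2%), against 11% of all tested probe sets. These were lower for TPM1, TPM2, TPM3 and LMOD2 (1 probe set each) and higher for TNNI3. The TPM3 one passed the signal filter only through its control values, and it is also 1 of the 5 without overlap below. In 5 of 26 probe sets every low-salt value lay below every control value, again 19.2%, against 5.68% of all tested probe sets. In 0 members every low-salt value lay above. The share of all tested probe sets in that direction was not counted, so nothing is read from this 0. The median change of the 26 was 0.02, beside 0.04 for all tested probe sets, with 14 changes above 0 and 12 below. When the probe sets of each gene were averaged, 0 of 9 genes passed, where 0.0695% of the 10076 genes tested did. Of the 9, 1 was at an unadjusted p under 0.05, TNNI3, which is read by 1 probe set. The share of the 10076 genes at that level was not counted, so nothing is read from this 1.

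**Figure D1:**
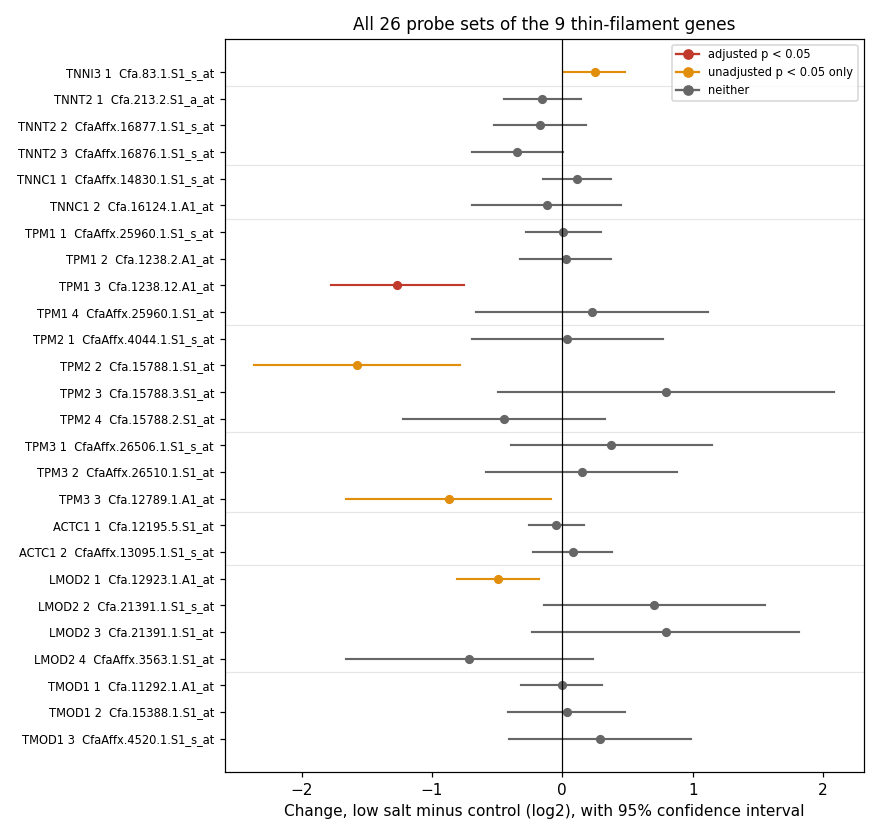
Change of each probe set in low salt minus control (log2, points) with its 95% confidence interval from the limma fit (lines), grouped by gene. The TPM1 probe set at -1.26 is the only one past the adjusted threshold, and the interval of the one TNNI3 probe set runs from 0.02 to 0.48.

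Brighter probe sets were measured with smaller errors. The 12 probe sets with a median intensity of at least 1000, a limit chosen after the values were seen, had standard errors of 0.10 to 0.21 and changes between -0.49 (LMOD2) and 0.25 (TNNI3). The other 14 had standard errors of 0.24 to 0.60 and changes between -1.58 and 0.80 (both TPM2).

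Troponin I, the inhibitory subunit, is read by 1 probe set. TNNI3 had intensities of 11388, 12620, 8147 and 11141 in low salt, against 12313, 11329 and 7195 in controls. The lowest value of each group came from the 2 arrays that resembled each other, and after normalization the groups still overlapped, by low-salt 3 alone. The normalized levels were 13.47 ± 0.16 (SD, n = 4) in low salt and 13.22 ± 0.13 (SD, n = 3) in controls. The difference of 0.25 ± 0.11 (SE) had an unadjusted limma p of 0.038 and an adjusted p of 0.422, and it was 0.09 without normalization and 0.53 when array medians were set equal. It was 0.18 without control 4, 0.32 without low-salt 3 and 0.25 without both.

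Troponin T, the subunit that binds tropomyosin, is read by 3 probe sets with like changes. Probe set 1 had intensities of 4977, 5398, 3471 and 5869 in low salt, against 5951, 5201 and 4437 in controls, and the groups overlapped. Its change was -0.15 ± 0.14 (SE, limma adjusted p = 0.713), with a 95% interval from -0.45 to 0.14. TNNT2 probe sets 2 and 3 differed by -0.17 and -0.34 (adjusted p = 0.743 and 0.466). Without low-salt 3 the changes of probe sets 1 and 2 were -0.06 and -0.02, and without low-salt 4 they were -0.24 and -0.27. Probe set 3 ran from -0.53 without control 3 (unadjusted p = 0.00614) to -0.24 without control 1. All 3 changes lay below 0 after quantile normalization and also without any normalization, but above 0 (0.34, 0.40 and 0.23) when array medians were set equal.

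Troponin C, the calcium sensor, showed no difference past the threshold in either of its probe sets. In TNNC1 probe set 1 the intensities were 7939, 7911, 5367 and 7003 in low salt, against 7368, 7875 and 4613 in controls. Low-salt 3 and control 4 were again the lowest arrays of their groups. The change was 0.11 ± 0.12 (SE, limma adjusted p = 0.777), with a 95% interval from -0.15 to 0.37. TNNC1 probe set 2, which is dimmer, differed by -0.12 (interval -0.69 to 0.45), and both changed sign without control 4, to -0.02 and 0.15. Across the 6 troponin probe sets the adjusted p ran from 0.422 to 0.909.

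**Figure D2:**
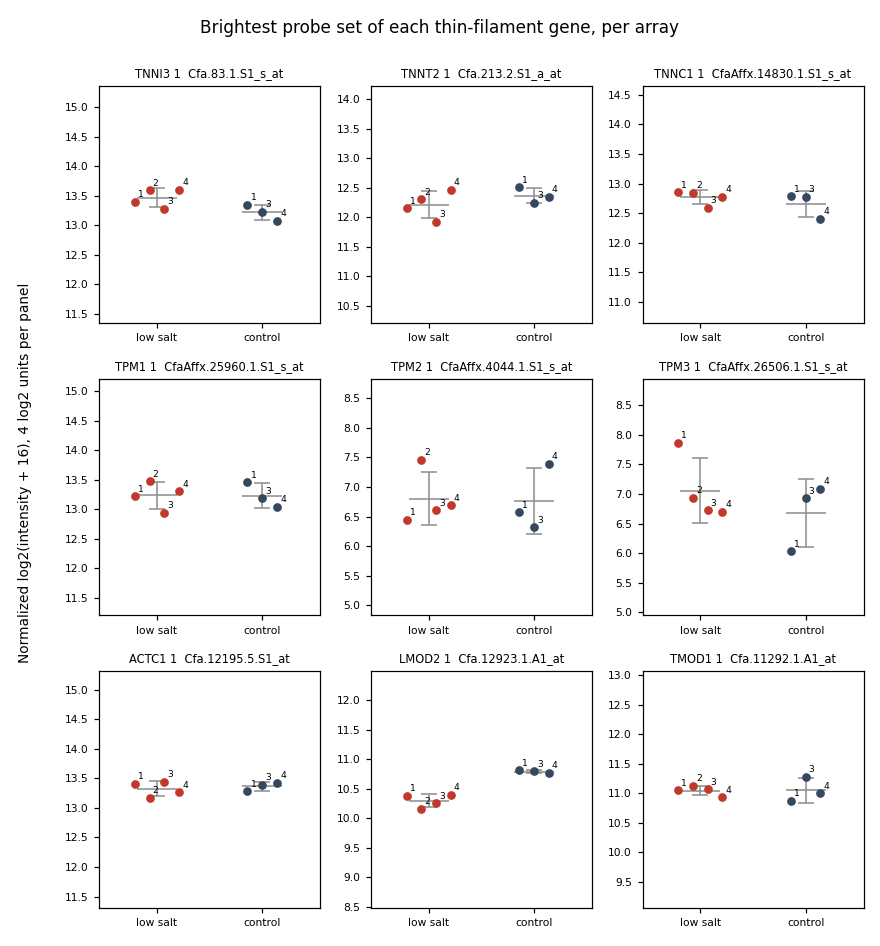
Normalized log2(intensity + 16) of the brightest probe set of each of the 9 genes, per array (numbers are the replicate numbers), low salt left of control, with group mean and SD in grey; every panel spans 4 log2 units. The groups overlap in all genes but LMOD2, whose 4 low-salt values lie between 10.16 and 10.40 and whose 3 control values lie between 10.77 and 10.81.

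Tropomyosins held the 3 lowest changes among the members, 1 in each gene, of which the one in TPM1 passed the test. Of the other 8 tropomyosin probe sets, 7 had changes above 0 and 1, in TPM2, stood at -0.45. The 11 probe sets of TPM1, TPM2 and TPM3 had a median change of 0.03. Of all 11, the low-salt values lay wholly below the control values in 4, the same 4 that had changes below 0. Among all tested probe sets 5.68% were lower without overlap. At an unadjusted p under 0.05 stood 3 of the 11, all lower, where 11% of all tested probe sets did in either direction. TPM2 probe set 4 was lower without overlap but not at that level.

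For TPM1, the α-tropomyosin of the ventricle, probe set 1 had intensities of 10017, 11866, 6705 and 9510 in low salt, against 13744, 10914 and 7070 in controls. These overlapped widely, and the normalized change was 0.01 ± 0.13 (SE, limma adjusted p = 0.991), with a 95% interval from -0.28 to 0.29. Probe set 2, also bright, differed by 0.03 (interval -0.32 to 0.37), and the dim probe set 4 by 0.23 (interval -0.66 to 1.12). The sign of probe set 1 turned in 6 of 17 other settings, that of probe set 2 in 5 and that of probe set 4 in 2.

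The called probe set was TPM1 probe set 3. Its intensities were 78.4, 80.7, 111 and 85.9 in low salt, against 273, 236 and 260.0 in controls. The highest low-salt value was less than the lowest control value, and the normalized values were tight within each group, at 6.81 ± 0.07 (SD, n = 4) in low salt and 8.07 ± 0.09 (SD, n = 3) in controls. The change of -1.26 ± 0.24 (SE), 2.40-fold lower, had an unadjusted limma p of 0.000109 and an adjusted p of 0.0411.

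The call did not hold throughout, although the change was below 0 in all 17 other settings, from -1.39 to -0.95. It passed in 7 of the 17. With each array left out in turn the change stayed between -1.31 and -1.22, and the adjusted p ran from 0.046 (without control 4) to 0.189 (without control 1), so that 1 of these 7 fits kept the call. Without both low-salt 3 and control 4 the change was -1.33 (limma adjusted p = 0.0427). When array medians were set equal it was -0.95 (adjusted p = 0.255). By the methods' t-test, at the study's nominal threshold with at least 2-fold change, 2 of the 26 members passed, TPM1 probe set 3 and TPM2 probe set 2, both lower, where 3.04% of all tested probe sets did. Averaged over its 4 probe sets, TPM1 differed by -0.25 ± 0.15 (SE, limma adjusted p over genes = 0.579).

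The stem of this probe set's identifier, the part before its own number, is shared by 12 probe sets. The platform annotation gives 10 of them to 8 genes, among them gelsolin (GSN), COX6A2, GABARAP and the fast skeletal troponin TNNT3. Apart from the called one, the tested probe sets of this stem had changes between -0.08 and 0.28. No probe sequence was used here, so the stretch of TPM1 that the probe set reads, and whether it reads TPM1 alone, was not tested.

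TPM2, the β-tropomyosin, is dim in all 4 of its probe sets. Probe set 1 had intensities of 56.4, 150.5, 100.2 and 67.6 in low salt, against 94.0, 63.2 and 166 in controls, with a change of 0.04 ± 0.34 (SE). Its groups overlapped over most of their range. TPM2 probe set 2 had intensities of 4.82, 22.8, 71.2 and 23.3 in low salt, against 139, 111 and 142 in controls, without overlap. Here the low-salt arrays were spread (5.50 ± 0.67 on the log2 scale, SD, n = 4) and the controls close together (7.08 ± 0.07, SD, n = 3). The change of -1.58 ± 0.37 (SE) had an unadjusted limma p of 0.000783 and an adjusted p of 0.113, and did not pass.

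Without low-salt 3 and control 4 this TPM2 probe set changed by -1.85 and passed (limma adjusted p = 0.0377), and with the offset varied the change ran from -2.15 (offset 1) to -0.94 (offset 64). In TPM2 probe set 4 the normalized values also lay below the controls without overlap, at -0.45 ± 0.36 (SE, adjusted p = 0.677), which did not pass. TPM2 probe set 3 stood at 0.80 ± 0.60 (SE, adjusted p = 0.655), with a spread of 1.18 in low salt and 1.08 in controls (SD of log2 values). It was 0.22 without control 1 and 1.37 without low-salt 3, and probe set 4 was -0.27 without low-salt 3. Averaged over its probe sets, TPM2 differed by -0.30 ± 0.28 (SE, adjusted p over genes = 0.728).

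TPM3, a tropomyosin of slow skeletal fibres and non-muscle cells, showed the same kind of disagreement. Probe set 1 had intensities of 212, 93.9, 107 and 68.3 in low salt, against 62.0, 104 and 142 in controls, and differed by 0.38 ± 0.36 (SE, limma adjusted p = 0.736). Single arrays moved this value, to 0.05 without control 1, 0.10 without low-salt 1 and 0.60 without control 4. TPM3 probe set 3 had intensities of 4.50, 11.5, 23.6 and 10.3 in low salt, against 69.6, 44.6 and 37.6 in controls. Every low-salt value was below every control value, and the change was -0.87 ± 0.37 (SE, unadjusted p = 0.0321, adjusted p = 0.403). TPM3 probe set 2 differed by 0.15, and by -0.20 without normalization.

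The probe set of lowest change lay below the brightest one of its gene by a difference of changes of -1.27 for TPM1, -1.62 for TPM2 and -1.25 for TPM3. These pairs were picked by their values, so the differences are a description and were not tested.

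**Figure D3:**
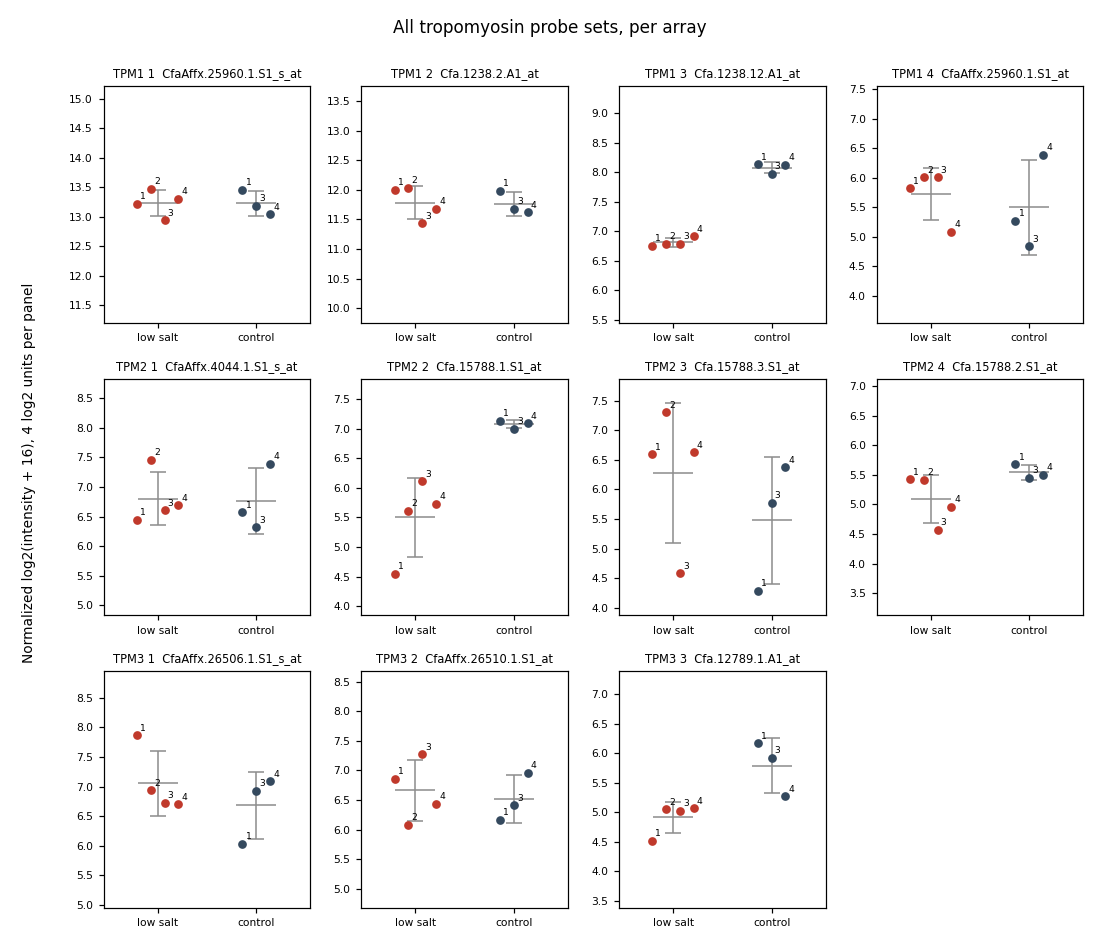
Normalized log2(intensity + 16) of all 11 tropomyosin probe sets, per array, low salt left of control, with group mean and SD in grey; every panel spans 4 log2 units. TPM1 probe set 3, TPM2 probe sets 2 and 4 and TPM3 probe set 3 are lower in all low-salt arrays, and the other 7 overlap.

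**Figure D4:**
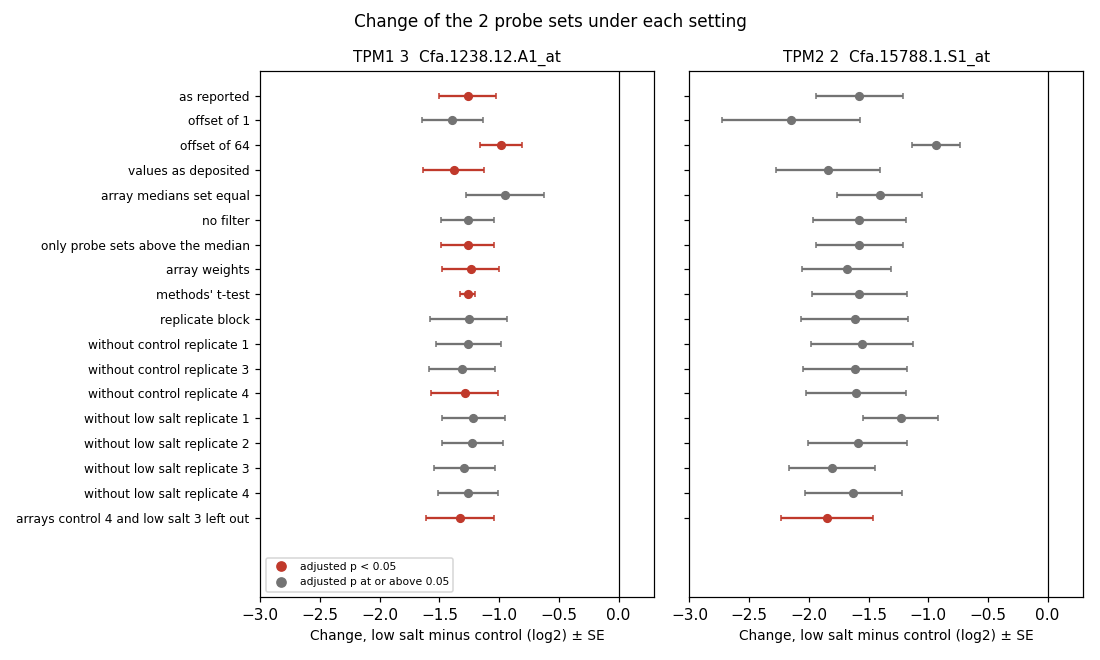
Change in low salt minus control (log2, points) ± SE (lines) of TPM1 probe set 3 (left) and TPM2 probe set 2 (right) as reported and under each of 17 other settings, red where the adjusted p is under 0.05. Both changes stay below 0 throughout, and TPM2 probe set 2 passes only with control 4 and low-salt 3 left out.

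Cardiac α-actin, the filament itself, differed between the groups by less than the spread within them. In ACTC1 probe set 1 the intensities were 11570, 9804, 9044 and 9207 in low salt, against 11783, 12704 and 9096 in controls. After normalization the values overlapped, at 13.32 ± 0.13 (SD, n = 4) in low salt and 13.37 ± 0.08 (SD, n = 3) in controls. The change was -0.05 ± 0.10 (SE, limma adjusted p = 0.901), with a 95% interval from -0.26 to 0.16, and ACTC1 probe set 2 differed by 0.08 (interval -0.22 to 0.38). The sarcomeric actins are close in sequence, and how far these probes also read the skeletal α-actin ACTA1 was not tested. The 3 ACTA1 probe sets, in order of falling signal, differed by -0.05, -0.24 and -0.02, and the one at -0.24 had no overlap between groups (limma adjusted p = 0.378).

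At the pointed end, 1 of the 7 probe sets of LMOD2 and TMOD1 was at an unadjusted p under 0.05, where 11% of all tested probe sets were. The adjusted threshold was passed by 0 of the 7, where 0.346% of all tested probe sets passed it. LMOD2 probe set 1 had intensities of 1420, 1204, 1118 and 1489 in low salt, against 1659, 1798 and 1518 in controls. The groups did not overlap, before or after normalization, and the controls had an SD of 0.02 on the log2 scale (n = 3). The change of -0.49 ± 0.15 (SE), 1.41-fold lower, had an unadjusted limma p of 0.00478 and an adjusted p of 0.25. It did not pass, and it was 0.09 when array medians were set equal. LMOD2 probe sets 2 to 4 were far dimmer and differed by 0.70, 0.79 and -0.72, with adjusted p from 0.546 to 0.582. With 1 array left out they ran from 0.27 (without control 3) to 1.06 (without control 4), from 0.51 (without control 4) to 1.19 (without control 1) and from -1.12 (without low-salt 2) to -0.53 (without low-salt 1).

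For TMOD1, which caps the same end, probe set 1 had intensities of 2303, 2408, 1948 and 2129 in low salt, against 1718, 2542 and 1799 in controls. The low-salt values all lay within the control range. The change was -0.01 ± 0.14 (SE, limma adjusted p = 0.992), with a 95% interval from -0.32 to 0.30. TMOD1 probe sets 2 and 3 differed by 0.03 (interval -0.41 to 0.48) and 0.29 (interval -0.41 to 0.98), the last at 0.15 without control 4 and 0.48 without low-salt 3.

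Among 49 other genes of the thin filament and of actin turnover (other troponins, actins, tropomodulins and leiomodins, barbed-end caps, the nebulin family, formins and cofilins, Kelch proteins, troponin I kinases and phosphatases), 46 were on the array and 43 were tested by their brightest probe set. By limma 1 of the 43 (2.33%) passed the adjusted threshold and 3 (6.98%) were at an unadjusted p under 0.05, 1 higher and 2 lower, beside 0.346% and 11% of all tested probe sets. Their median change was -0.05, with 14 above 0. Read by every probe set, as the members are, these genes had 100 tested, of which 1 passed and 13 (13%) were at an unadjusted p under 0.05, 5 higher and 8 lower, with a median of -0.02 and 45 above 0. The gene that passed was TNNI2, troponin I of fast skeletal fibres. Its brighter probe set had intensities of 48.7, 1.80, 22.1 and 28.4 in low salt, against 285, 160 and 184 in controls. Every low-salt value lay below every control value, and the change was -2.38 ± 0.44 (SE, limma adjusted p = 0.0411). The other TNNI2 probe set differed by 0.59, and with each array left out the brighter one passed in 2 of 7 fits, without control 4 and without low-salt 1 (adjusted p over the 7 fits from 0.0256 to 0.226).

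Of the brightest probe sets, the others at an unadjusted p under 0.05, named after their values were seen, were the tropomyosin TPM4 (-0.31, adjusted p = 0.339) and the phosphatase subunit PPP2CA (0.41, adjusted p = 0.398). Among the dimmer probe sets, also named after their values were seen, 1 of ACTA1 (-0.24), 1 of the barbed-end cap subunit CAPZA1 (-0.62), 1 of nebulin NEB (-1.11) and 3 of nebulette NEBL (-0.72, -1.05 and -1.28) were lower at that level. Another NEBL probe set (0.87), and 1 each of GSN (0.52), PPP1CA (1.38) and WDR1 (0.83), were higher, and the adjusted p of all these was 0.194 or more. The NEBL probe set at -1.28 passed the signal filter only through its control values (low-salt mean 4.62). The NEBL probe set at 0.87 passed it only through its low-salt values (control mean 4.67). Both are among the 13 counted above. TNNT1, the slow skeletal troponin T, differed by -0.03 and TNNC2, the fast troponin C, by -0.14, while TNNT3 was too dim to be tested.

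Marker and RNA quality values were as follows. The 7 fast skeletal muscle markers, all named on the array, had summed intensities of 189 to 460 in low salt and 440 to 598 in controls. These sums include TNNI2 itself, at 1.80 to 48.7 in low salt and 160 to 285 in controls. They are therefore not separate from its call. ATP2A1 overlapped, at 102 to 254 in low salt and 116 to 226 in controls. Of the 4 tested, TNNI2 was lower, and TNNC2, ATP2A1 and MYH2 stood at -0.14, -0.10 and 0.10. Too dim to be tested were MYH1 (-0.88), TNNT3 (-0.13) and ACTN3 (0.91), and ACTN3 was higher without overlap between groups. Of the atrial markers MYL4 stood at -2.14 (limma adjusted p = 0.258) and MYL7 at 0.39, with summed intensities of 3387 to 5778 in low salt and 2683 to 7147 in controls. Of 4 smooth muscle markers CNN1, the dimmest (median intensity 33.4 in low salt and 12.4 in controls), was at 1.19 (limma adjusted p = 0.243). TAGLN stood at 0.38, MYH11 at -0.31 and ACTA2 at -0.065, each with overlapping groups. The fibroblast, endothelial and macrophage lists (4, 3 and 4 tested) had 0 at an unadjusted p under 0.05. The GAPDH 3' to 5' signal ratio, a measure of RNA integrity, was 14.5 to 22.6 in low salt and 22.7 to 40.9 in controls (exact permutation p = 0.0571, the smallest possible). The part of these in the tropomyosin results was not tested, and in whole ventricle fewer cells of a type and less RNA per cell cannot be told apart.

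By the smallest root mean square difference over the 7 arrays after centring each profile, out of 11372 other genes, WDR48 (0.0366) and ANK3 (0.0461) lay nearest to TNNI3, and SLC25A5 (0.066) and UPF2 (0.0733) to TNNT2. ALG8 (0.0544) and MMS19 (0.0545) lay nearest to TNNC1, XPO1 (0.0488) and IDH3A (0.0518) to TPM1, and PTP4A1 (0.0397) and RPL19 (0.0416) to ACTC1. None of these 10 passed the adjusted threshold, which follows from their choice, since the members they resemble did not pass either. Within the family, TNNI3 and TNNC1 were each other's nearest member, at 0.118, and their profiles differed by less than the spread of either over the arrays (SD of 0.19 for TNNI3 and 0.163 for TNNC1). The same held for TPM1 with TNNC1 (0.126) and TNNT2 with TPM1 (0.142), but not for ACTC1 with TMOD1 (0.143, SD of 0.103 for ACTC1). All of these members lay nearer to the genes named above. Those were the nearest of 11372, while the family holds only 9, so the comparison is uneven. No conclusion on likeness within the family follows from it.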

How the data were processed

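Biotin-labelled RNA from left ventricle was measured on Affymetrix arrays with 1 colour, per the labels' protocols. The authors deposited linear probe set intensity values, made with GCOS per the submitters' processing notes; the version and the summary method are not stated there. Each array had been scaled, since the trimmed mean intensity was 150.04 to 150.05 on all 7.

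The deposited intensities were put on the scale log2(value + 16) for the 42924 probe sets that are no array controls (111 were) and were quantile normalized. The third with the lowest mean over all arrays was left out, and 28616 were tested with limma 3.58.1 in R 4.3.3 (lmFit, eBayes with trend, Benjamini-Hochberg), low salt against control, without covariates. GAPDH ratios were compared by exact permutation. The code was tested on simulated data. Names come from the platform annotation; all 9 gene numbers matched assembly UU_Cfam_GSD_1.0 with the same symbol. No coordinates or sequences were used here.

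All member probe sets are named; values per array are given for the brightest of each gene and those at an unadjusted p under 0.05. The listed genes past the adjusted threshold are named, and others are said to be named after their values were seen. The members, lists, tests and alternatives were chosen with earlier results of these data known.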

Additional observations from a re-analysis of the deposited data

Results flagged for a closer look

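Of 28 sets of 4 low-salt values examined (26 probe sets and 2 GAPDH ratios), 2 held an array far from the other 3; chance alone marks about 1 set in 20. In TPM1 probe set 3 low-salt 4 stood at 6.91 and the nearest other array at 6.78, so that the whole group spanned 6.76 to 6.91, below every control value. In TPM3 probe set 3 low-salt 1 stood at 4.52 and the nearest at 5.03.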

How the results depend on the processing

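Under 17 other settings, 10 of the 26 member probe sets kept the sign of their change wherever they were tested and 16 did not; the cause was not tested. The member count called (1) became 0 with an offset of 1, with array medians set equal, with no filter and with the replicate block, ran from 0 to 1 with 1 array left out, and became 2 without control 4 and low-salt 3 together, a setting added after seeing the data. The 5 members at an unadjusted p under 0.05 became 3 with array medians set equal. The calls over all probe sets, 99, became 39 (offset 1), 165 (as deposited), 27 (no filter), 177 (array weights), 4 (the methods' t-test), 27 (replicate block), 377 (both arrays out) and 21 (without control 1 or low-salt 4) to 290 (without control 4) with 1 array left out. The call of TNNI2 (1 listed gene) became 0 with an offset of 1, no filter, the filter at the median, the methods' t-test and the block, and 0 to 1 with 1 array left out. The calls split into 11 higher and 88 lower, 13 and 152 as deposited, and 33 and 106 with equal medians, and the median change of all tested probe sets was 0.04, -0.18 and 0.26 in these 3 scalings.

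Without normalization the changes that turned sign were -0.13 and -0.14 for TPM1 probe sets 1 and 4, -0.17 for TPM2 probe set 1, -0.20 for TPM3 probe set 2, and 0.14 and -0.11 for TMOD1 probe sets 1 and 3. With equal medians they were 0.34, 0.40 and 0.23 for TNNT2, 0.32 for TNNC1 probe set 2, 0.26 for ACTC1 probe set 1, 0.087 for LMOD2 probe set 1 and 0.57 for TMOD1 probe set 1. Without control 4 and low-salt 3 they were 0.22 for TNNC1 probe set 2 and -0.088 for TMOD1 probe set 2.

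With 1 array left out the ranges of the changes that turned were -0.016 to 0.17 and -0.40 to 0.15 for TNNC1 probe sets 1 and 2, and -0.087 to 0.11, -0.0565 to 0.14 and -0.10 to 0.67 for TPM1 probe sets 1, 2 and 4. They were -0.18 to 0.37 for TPM2 probe set 1, -0.055 to 0.39 for TPM3 probe set 2, -0.089 to 0.0029 and -0.052 to 0.17 for ACTC1 probe sets 1 and 2, and -0.097 to 0.11 and -0.17 to 0.20 for TMOD1 probe sets 1 and 2.

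Low-salt and control samples share the numbers 1, 3 and 4, and same-numbered samples did not deviate together (r = 0.0743, -0.264 and -0.18). This cannot exclude a pairing, because the shared numbers are few and low-salt 3 deviated together with control 4 (r = 0.434). The main fit used no pairing. With the replicate block the called TPM1 change was -1.26 (limma adjusted p = 0.366), and the changes that turned were -0.072 and -0.056 for TPM1 probe sets 1 and 2, -0.18 for TPM2 probe set 1, 0.0027 for ACTC1 probe set 1 and -0.075 for TMOD1 probe set 2. The GAPDH ratio difference of -11.6 was -0.31 in the second probe pair, whose ratios are smaller, with the same exact permutation p of 0.0571. With 7 arrays and limma standard errors of 0.24 to 0.60, changes of the dim probe sets are weakly bounded.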
